A study of Homo sapiens with 14 samples.

Results

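Ribosome footprints from the microsomes of 2 engineered HEK293 lines were compared, gene by gene, in 5 of the 14 libraries of the series. The libraries were chosen by their labels as input, the solubilized microsomes taken before any affinity step: 2 from the line induced to express 3Flag-EMC7 (EMC7 inputs) and 3 from the line induced to express 3Flag-EMC10 (EMC10 inputs). The other 9 libraries were 2 inputs of a line expressing 3Flag-EMC6 in an EMC6 knockout, given here as values beside the others, and 7 Flag immunoprecipitates. All lines were Flp-In T-REx 293, a derivative of the human embryonic kidney line HEK293 that carries an integration site and the Tet repressor, and all inputs came from cells given doxycycline at 0.5 to 1.0 ng/mL for 72 h. The EMC7 and EMC10 labels name no knockout and do not say whether a line is a clone or a pool, and every group was induced, so no uninduced or untagged cells enter the comparison. No label says that replicates are separate cultures, and the p-values given here therefore rest on a spread between libraries that may be technical.

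The ER membrane protein complex (EMC) is an insertase and chaperone of the endoplasmic reticulum (ER) that places tail-anchored proteins and certain segments of multi-pass proteins into the membrane. EMC7 and EMC10 are subunits with domains in the ER lumen that belong to the same complex. Ribosomes making secreted and membrane proteins dock on the ER during synthesis, so footprints from microsomes report mainly on messages translated there, together with ribosomes that come down with the membranes.

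The 5 inputs held 2397165 to 3395114 counts on genes, against 1692490 and 1835892 in the EMC6 line inputs. Each of the 5 showed counts on 12198 to 12591 genes. Markers of the HEK293 line were read in every one of them: VIM at 800 to 1000 CPM (counts scaled to library size with TMM factors), CDH2 at 1099 to 1341, EPCAM at 410 to 521, KRT8 at 161 to 184 and the neurofilament NEFL at 61.9 to 91.0, whereas NEFM, the partner of NEFL on the same list, had 1 count over the 5 libraries. PAX8 and LHX1, embryonic kidney factors made in the cytosol and on the same marker list, had 0 counts, and PAX2 had 17 over the 5 libraries. The tubule genes SLC34A1, UMOD and AQP2, the leukocyte gene PTPRC and the endothelial genes PECAM1, CDH5 and VWF had 0 counts, while the endocytic receptor LRP2 stood at 468 to 665 CPM. Some markers of other tissues were read at low levels in every input: COL1A1 at 2.25 to 4.65 CPM, ACTA2 at 1.88 to 4.65 and MBP at 1.61 to 4.62. LUM, DES, NPHS1, DCN, HBB and APOA1 had 1 to 9 counts each over the 5 libraries. The intervals given below cover the spread between libraries that edgeR estimated. A count of 0 was read within counting error only, and the removal of PCR duplicates is not stated.

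The bait messages separated the lines in the direction of the labels. Footprints on EMC7 (chromosome 15, 34084017 to 34101862, GRCh38) stood at 4215 and 4644 CPM in the EMC7 inputs and at 314, 225 and 262 CPM in the EMC10 inputs. Footprints on EMC10 (chromosome 19, 50476507 to 50490871) stood at 264 and 327 CPM in the EMC7 inputs and at 2270, 2381 and 3062 CPM in the EMC10 inputs. Neither message overlapped between the lines. The EMC7 message exceeded its level in the EMC10 inputs by 16.6-fold (log2 4.05, 95% interval 3.61 to 4.50, adjusted p = 1.20e-09, edgeR quasi-likelihood test with Benjamini-Hochberg adjustment), and the EMC10 message exceeded its level in the EMC7 inputs by 8.70-fold (EMC7 minus EMC10 inputs -3.12, interval -3.44 to -2.80, adjusted p = 9.45e-15). The EMC7 message took 0.534% and 0.602% of all counts on genes in its own inputs, and the EMC10 message 0.312%, 0.321% and 0.393% in its own. Endogenous and tagged messages share these counts, and footprints on a message are not the level of its protein.

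Each line also serves as the line without the other's transgene. The EMC7 message stood at 267 ± 44.9 CPM (SD, n = 3) in EMC10 inputs and at 119 ± 14.5 (n = 2) in EMC6 line inputs. The EMC10 message stood at 296 ± 44.4 CPM (n = 2) in EMC7 inputs and at 76.6 ± 23.1 (n = 2) in EMC6 line inputs. EMC1, a large ER-anchored subunit with no transgene here, was also lower in the EMC6 line inputs, at 386 and 480 CPM against 895 to 1074 in the 5 inputs. The means of EMC3, EMC4, MMGT1 and EMC8 were lower there too, but not those of EMC2 and EMC9. EMC2 averaged 21.8 CPM there, against 15.7 in EMC7 and 13.0 in EMC10 inputs, and EMC9 4.73 against 4.68 and 3.11.

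None of the other 8 subunits passed the test. EMC1 stood at 1074 and 990 CPM in EMC7 inputs and at 895, 966 and 1059 in EMC10 inputs (log2 difference 0.08, interval -0.21 to 0.38). EMC3, which lines the insertion path of the complex, stood at 249 and 242 against 220, 214 and 274 CPM (0.06, interval -0.25 to 0.37). EMC4 stood at 88.7 and 95.9 against 92.5, 84.0 and 84.6 CPM. The values of the lines overlapped for EMC1, EMC3 and EMC4. MMGT1, also called EMC5, stood at 39.3 and 58.9 against 51.5, 45.7 and 54.9 CPM (-0.06, interval -0.44 to 0.32), and EMC6, which the third line lacks as an endogenous gene, at 26.5 and 28.3 against 30.8, 26.4 and 32.9 (-0.13, interval -0.55 to 0.29). The cytosolic subunits carried few footprints. EMC2, the cytosolic scaffold, stood at 12.1 and 19.3 against 14.6, 14.9 and 9.38 CPM (0.23, interval -0.31 to 0.77), and EMC8 had an interval of -0.72 to 0.30. EMC9, the alternative to EMC8, stood at 5.82 and 3.54 against 2.78, 3.08 and 3.48 CPM, 25 and 11 counts against 12, 14 and 13, so the lines did not overlap (0.63, interval -0.20 to 1.45). For 7 of the 8 subunits, all but EMC9, the interval lay within a 2-fold change either way, and adjusted p was 1 for each in edgeR's quasi-likelihood test.

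**Figure D1:**
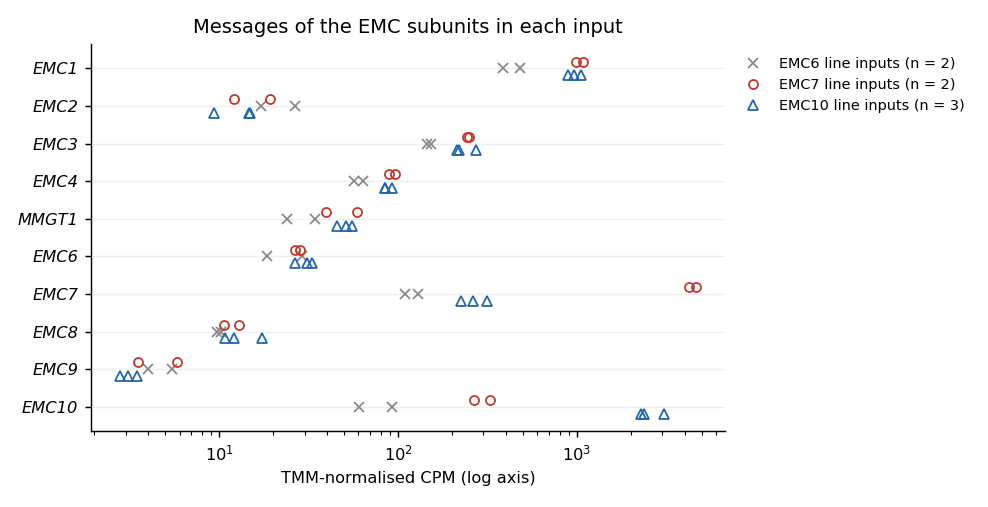
TMM-normalised CPM of the 10 EMC subunit messages (log axis) in each input library, with crosses for EMC6 line inputs (n = 2), circles for EMC7 line inputs (n = 2) and triangles for EMC10 line inputs (n = 3). EMC7 and EMC10 stand apart in their own lines, at 4215 and 4644 CPM and at 2270 to 3062 CPM, while the circles and triangles of the other subunits lie close to each other, with EMC9 apart at the lowest levels.

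The messages with the most footprints describe what these microsomes were making. The leading message was HSP90B1, the HSP90 of the ER lumen, with 1.15% of all counts on genes averaged over the 5 inputs. It was followed by the lectin chaperones CALR (0.998%) and CANX (0.943%) and, further down, by GANAB (0.643%), the catalytic subunit of glucosidase II, whose partner PRKCSH took 0.562%. The ER HSP70 HSPA5 took 0.592% and the disulfide isomerase P4HB 0.430%. The ER folding machinery thus held 7 of the 20 leading positions, all within the first 14. Other secretory messages of the first 20 were the amyloid precursor family members APP (0.629%) and APLP2 (0.426%), the matrix proteins FBN2 (0.549%) and LAMC1 (0.378%), the secreted protease ADAMTS1 (0.451%), the glycoprotein BSG (0.521%) with its partner the lactate carrier SLC16A1 (0.388%), the ER calcium pump ATP2A2 (0.374%) and the lysosomal precursor PSAP (0.365%). The cytosolic proteins among them were the elongation factors EEF1A1 (0.536%) and EEF2 (0.454%) and the chaperone HSP90AB1 (0.379%). A share of footprints grows with the length of a coding sequence and the amount of its message as well as with its rate of translation. This order is therefore not an order of synthesis per molecule.

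Both lines gave these messages at close levels. HSP90B1 stood at 9365 and 9436 CPM in EMC7 inputs and at 7645, 8199 and 9275 in EMC10 inputs, with the groups just apart (log2 difference 0.17, interval -0.11 to 0.45). HSPA5 stood at 4547 and 5060 against 4185, 3692 and 5076 CPM (0.15, interval -0.17 to 0.48), and overlapped between the lines. Relative to its level, ADAMTS1 had the widest spread within both lines among the 20, at 3992 and 2988 CPM in the EMC7 line against 2746, 4069 and 3380 in the EMC10 line (0.04, interval -0.31 to 0.39). EEF1A1 stood at 4171 and 3979 against 4548, 3808 and 3858 CPM, and EEF2 at 3171 and 3443 against 3927, 3296 and 3395. In both elongation factors EMC10 input 1 was the highest of the 5 libraries, and it was the lowest for HSP90AB1's ER relative HSP90B1. Adjusted p was 1 for all 20 messages in edgeR's test.

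The EMC6 line inputs, which share the label of input but not the genotype, read lower for most of these messages. HSP90B1 stood there at 4150 and 4505 CPM, HSPA5 at 2167 and 1678 and ATP2A2 at 1215 and 1414. EEF1A1 at 3824 and 2304 and HSP90AB1 at 3055 and 2050 CPM reached or came near the 5 inputs in 1 of the 2 libraries. These inputs were shallower, and reads outside genes made up 11.0% and 12.1% of their counts against 4.23% to 4.71% in the 5 inputs. The part of these differences in the levels was not tested.

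**Figure D2:**
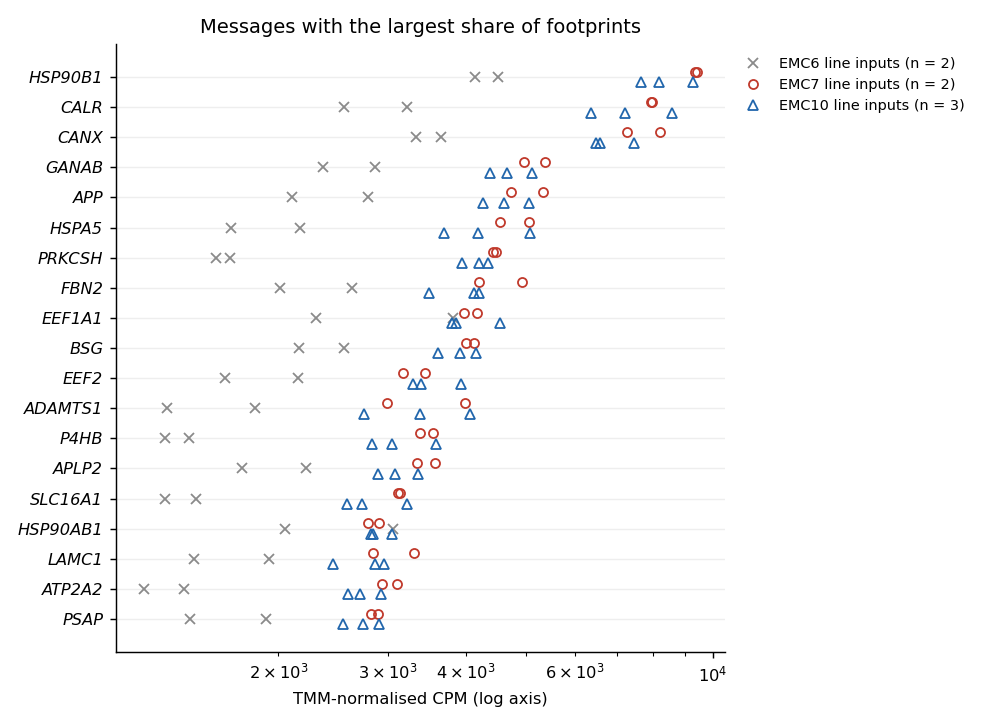
TMM-normalised CPM (log axis) of 19 of the 20 messages with the largest mean share of counts, with circles for EMC7 line inputs (n = 2), triangles for EMC10 line inputs (n = 3) and crosses for EMC6 line inputs (n = 2). Circles and triangles lie together in every row, from HSP90B1 at 7645 to 9436 CPM down to PSAP at 2543 to 2906, and the crosses lie lower except for 1 library each of EEF1A1 and HSP90AB1.

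Ranked within each line, 19 of the first 20 messages were shared, as were 96 of the first 100 and 974 of the first 1000. The leading 10 messages took 7.17% to 7.82% of the counts of a library, the leading 100 took 27.1% to 28.7% and the leading 1000 took 67.3% to 68.9%. Between 389 and 425 genes made up 50% of the footprints in each of the 5 libraries, and 3243 to 3423 genes made up 90%. The EMC7 inputs and EMC10 input 3 were slightly more concentrated than EMC10 inputs 1 and 2, which each needed 425 genes to reach 50%.

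Across all genes, the comparison asks whether cells that differ in the induced subunit carry different footprints on their microsomes. Footprints depend on the amount of a message as well as on its translation, and the amount was not measured here. With the bait messages left apart, 9456 genes were tested and 0 passed an adjusted p of 0.05 in either direction (0%, edgeR's quasi-likelihood test with Benjamini-Hochberg adjustment), and the smallest adjusted p was 1. At an unadjusted p under 0.05 stood 159 genes (1.68%), 65 of them higher in EMC7 inputs (0.687%) and 94 lower (0.994%), where evenly spread p-values would give 472.8. DESeq2's Wald test called 0 genes as well, with 47 at an unadjusted p under 0.05. The values of the 2 EMC7 inputs did not overlap those of the 3 EMC10 inputs for 1732 genes (18.3%), 929 higher (9.82%) and 803 lower (8.49%). Only 10 splits into 2 and 3 libraries exist, so a lack of overlap is frequent even without a difference between lines.

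The shared spread of this fit includes the more variable EMC6 line and the immunoprecipitates. With the 5 inputs fitted alone, 0 of 9734 genes passed, the smallest adjusted p was 0.985, and 411 genes had an unadjusted p under 0.05. The labels list the replicate number under batch too, and with that number as a block in the fit of the 5 inputs 0 genes passed and 306 had an unadjusted p under 0.05.

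The differences themselves were small. The median log2 difference was 0.01, the median of its size 0.13, and for 90% of genes the size was below 0.39 on the log2 scale. A difference of over 2-fold was fitted for 59 genes, and 0 of these reached 10 CPM on average in the higher line. The 95% interval lay within a 1.5-fold change either way for 4624 genes (48.9%), within 2-fold for 7848 (83.0%) and within 3-fold for 9146 (96.7%). A missed threshold does not show that a gene was equal in the lines, but for these genes larger differences fall outside the interval.

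These intervals were mostly narrower at higher counts, but not for every gene. HSPA8, at 1744 and 2322 CPM in EMC7 inputs, had an interval of -1.04 to 1.09. Among the 612 genes with over 1000 counts per input on average, 98.7% had an interval within 1.5-fold, and 0 had an unadjusted p under 0.05. Among the 2115 genes with 100 to 300 counts it was 85.1%. Of the 2132 genes with 10 to 30 counts 47.0% had an interval within 2-fold. Of the 315 with under 10 counts none did, so each of those intervals reached a 2-fold difference in at least 1 direction.

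**Figure D3:**
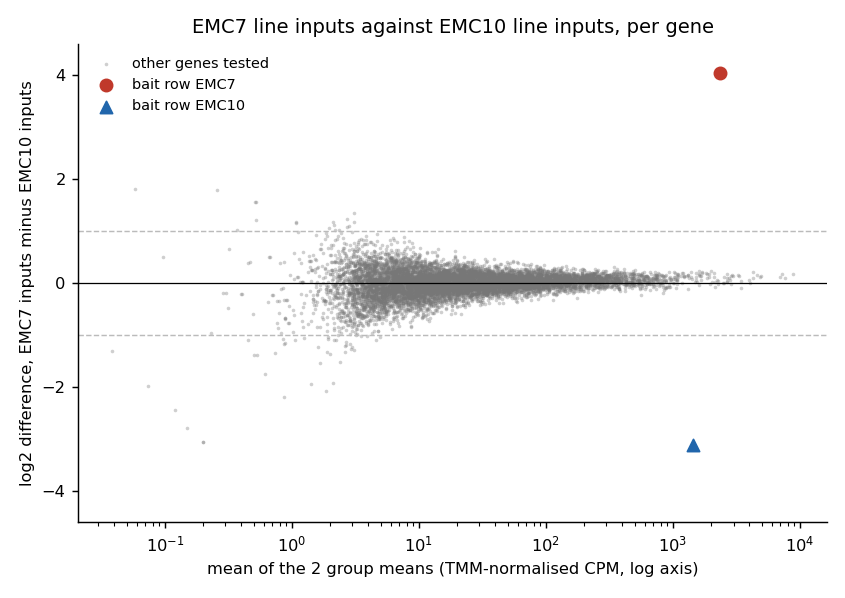
Log2 difference of EMC7 minus EMC10 inputs against the mean of both groups in TMM-normalised CPM (log axis) for each gene tested, with the bait message EMC7 as a circle at 4.05 and EMC10 as a triangle at -3.12. Dashed lines mark a 2-fold difference, which 59 other genes exceed, all below 10 CPM in the higher line.

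Pairs of libraries from different lines lay about as close as pairs from the same line. Over 1464 genes with at least 100 CPM, the SD of the log2 ratio between the EMC7 inputs was 0.184, and between pairs of EMC10 inputs 0.155 to 0.186. Across the lines the 6 pairs gave 0.127 to 0.221, with a mean of 0.164 against 0.171 within the EMC10 line. The closest of all pairs was EMC7 input 2 with EMC10 input 3, across the lines, and the farthest of those across the lines was EMC7 input 1 with EMC10 input 1. Pairs of the same replicate number gave 0.221 for number 1 and 0.160 for number 2. Counting noise alone would give 0.068 to 0.077 in pairs of the 5 libraries. The EMC6 line inputs stood farther off, at 0.484 to 0.804 from any of the 5 and 0.432 from each other.

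Gene groups were read by the number of members with a positive difference (higher in EMC7 inputs) and by their median, beside 53.3% positive and a median of 0.01 over all genes. These shares depend on the scaling, since 38.8% of all genes were positive with library size alone and 23.6% with scaling on secreted and luminal lists, so each list is read against all genes. Single libraries also weighed on them: for each of the 36 lists with at least 3 members tested, the median relative to all genes moved by over 1.5 times without at least 1 of the 5 inputs, and for 15 it changed sign. In none of 37 lists did a member pass the adjusted test, against 0% of all genes. Over all genes the median also rose with the count, from -0.06 under 10 counts per input to 0.07 over 1000. Lists were not matched for it, at a median of 363 CPM in EMC7 inputs for the ER chaperones and 8.09 for tail-anchored proteins. The part of this trend in the list medians was not tested. The machinery of the ER came first. Of 40 chaperones and folding enzymes of the ER lumen 38 were positive, with a median of 0.12, and all 40 intervals lay within 2-fold. The share of counts on this list was 7.82% and 7.87% in EMC7 inputs, against 7.28%, 7.05% and 7.96% in EMC10 inputs, so that EMC10 input 3 was the highest of all (two-sided exact permutation p = 0.4, where 0.1 is the smallest that 2 against 3 libraries allow). Of 37 genes for the Sec61 channel, the signal recognition particle and the oligosaccharyltransferase 32 were positive (median 0.09), all with intervals within 2-fold. STT3A, a catalytic subunit of the oligosaccharyltransferase, stood at 1826 and 1826 CPM against 1432, 1510 and 1835 (0.20, interval -0.08 to 0.48), with EMC10 input 3 at the EMC7 level. Of 31 genes for ER-associated degradation 23 were positive (median 0.09). Relative to all genes and without each input in turn, the medians ranged from 0.06 to 0.18 for the chaperones, from 0.03 to 0.15 for the Sec61 list and from 0.06 to 0.13 for ER-associated degradation, each lowest without EMC10 input 1.

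The partners of EMC in membrane insertion had small differences. Of 13 tested genes for the multi-pass translocon and the tail-anchor insertase GET 8 were positive, with a median of 0.03 and every interval within 2-fold. CCDC47, of the PAT complex that shields polar segments, stood at 1219 and 1132 CPM against 976, 1013 and 1118 (0.18, interval -0.09 to 0.46). TMCO1, of the GEL complex, stood at 354 and 512 against 391, 403 and 460 CPM (0.05, interval -0.27 to 0.36), and the lines overlapped.

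Stress responses of the ER and the cytosol were read next. Of 40 targets of the stress factors ATF4 and CHOP 22 were positive (median 0.01). Some messages were chosen for their known roles after their values were seen. HERPUD1, induced by ER stress, stood at 65.2 ± 5.64 CPM (SD, n = 2) in EMC7 inputs and 63.8 ± 7.82 (n = 3) in EMC10 inputs, and the transcription factor XBP1 at 43.5 ± 0.06 and 42.4 ± 1.14. The asparagine synthetase ASNS, an ATF4 target, was wider in its interval: 106 ± 11.0 (n = 2) against 122 ± 26.4 (n = 3) CPM, with a log2 difference of -0.21 and an interval of -1.09 to 0.67.

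Of 35 genes on the list for the transcription factor SREBP2 and cholesterol synthesis 26 were positive (median 0.06), 31 with intervals within 2-fold. The list also holds enzymes that act on fatty acids. FASN, the fatty acid synthase, stood at 1874 and 2319 CPM against 2294, 2084 and 2248, and the desaturase SCD at 1580 and 1526 against 1346, 1552 and 1686. HMGCS1, a cytosolic enzyme of cholesterol synthesis named after its values were seen, stood at 94.6 ± 1.82 CPM (SD, n = 2) against 90.6 ± 14.0 (n = 3), with a log2 difference of 0.06 and an interval of -0.27 to 0.39.

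Clients of the membrane were read by topology. Of 154 solute carriers 112 were positive (median 0.11), of 50 P-type and ABC pumps 35 (0.08), of 75 ion channels 49 (0.10), of 54 G protein-coupled receptors 34 (0.05) and of 35 tetraspanins, claudins and connexins 26 (0.08). The neutral amino acid carrier SLC1A5 stood at 2842 and 2577 CPM against 2479, 2683 and 2825 (0.03, interval -0.27 to 0.32), and the tetraspanin CD81 at 1160 and 1194 against 1119, 1136 and 1272 (0.00, interval -0.30 to 0.30). Both overlapped between the lines, and without EMC10 input 1 the medians relative to all genes turned from 0.07 to -0.02 for tetraspanins, claudins and connexins and from 0.04 to -0.01 for G protein-coupled receptors. Without that library the median relative to all genes was 0.00 for pumps, against 0.06 with it. Without EMC7 input 1 it was 0.00 for ion channels and 0.03 for solute carriers, against 0.08 and 0.09. Of 44 tail-anchored proteins, a class whose ER members EMC and GET insert after translation, 16 were positive, with a median of -0.11. At an unadjusted p under 0.05 in edgeR's test 2 were lower and 0 higher, beside 0.994% and 0.687% of all genes. The list was found after its values were seen to hold TOMM20 and YKT6, which are not anchored by a C-terminal segment, and without them 14 of 42 were positive (median -0.13). MCL1, an apoptosis regulator with a tail anchor and, unlike most of the list, positive, stood at 63.8 and 63.7 CPM against 60.7, 51.0 and 61.3 (0.15, interval -0.17 to 0.46).

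Proteins that cross the membrane a single time or are secreted also had more positive members than genes at large. Of 49 cadherins and protocadherins 45 were positive (median 0.08), of 36 integrins, Notch and LRP receptors 32 (0.14), of 36 receptor kinases 33 (0.14), of 55 axon guidance receptors and semaphorins 44 (0.12), of 84 collagens, laminins and other matrix proteins 73 (0.15), of 41 lysosomal hydrolases 32 (0.08) and of 85 type II Golgi enzymes 64 (0.09). ITGB1, the common integrin beta chain, stood at 1927 and 1567 CPM against 1342, 1507 and 1589 (0.24, interval -0.05 to 0.53). The receptor kinase MET stood at 629 and 639 against 489, 550.5 and 600 CPM (0.21, interval -0.09 to 0.52). MET did not overlap between the lines, ITGB1 did, and EMC10 input 1 was the lowest library for each. The median of the matrix list relative to all genes, 0.13, turned to -0.04 without EMC7 input 1. Without the same library it was 0.03 for integrins, Notch and LRP receptors (0.12 with it), 0.06 for receptor kinases (0.13), 0.03 for axon guidance genes (0.10) and 0.01 for cadherins (0.07), which reached 0.00 without EMC10 input 2. Without EMC10 input 1 it was 0.02 for lysosomal hydrolases (0.07) and 0.02 for Golgi enzymes (0.08). The guidance ligand SLIT2 stood at 2090 and 1837 against 1479, 1760 and 1883 CPM (0.20, interval -0.09 to 0.49).

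Most lists of cytosolic and nuclear proteins had fewer positive members than genes at large. Of 77 cytosolic ribosomal proteins 25 were positive (median -0.03), of 54 translation factors 23 (-0.03), of 28 glycolysis and hypoxia genes 10 (-0.03), of 48 histones 9 (-0.11), of 43 cell cycle genes 13 (-0.03) and of 37 cytoskeleton genes 14 (-0.04), while 30 of 57 proteasome and chaperonin genes were positive (0.01). The list of lamins and nuclear envelope proteins, several of them membrane proteins, lay on the other side with 14 of 21 positive (0.07). RPL4 stood at 800 and 832 CPM against 937, 831 and 800 (-0.07, interval -0.39 to 0.25), and the linker histone H1-4 at 565 and 541 against 600, 603 and 563 (-0.09, interval -0.38 to 0.20). EMC10 input 1 was the highest of the 5 for RPL4, and without it the medians relative to all genes were 0.00 for ribosomal proteins and translation factors alike, against -0.05 and -0.04 with it. Of the mitochondrial lists, 43 of 78 respiratory chain genes (median 0.02), 36 of 74 mitochondrial ribosomal proteins (0.00) and 14 of 26 carriers (0.09) were positive. The median of the carriers relative to all genes, 0.08, turned to -0.08 without EMC7 input 1.

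The share of counts on a list did not overlap between the lines for 7 of the 37 lists (18.9%, beside 18.3% of single genes). It was higher in EMC7 inputs for ER-associated degradation, pumps and cadherins, and lower for glycolysis, histones, immediate early genes and the cytoskeleton. The cytoskeleton list took 1.46% and 1.45% in the EMC7 line against 1.57%, 1.59% and 1.65% in the EMC10 line (two-sided exact permutation p = 0.1, the smallest possible, adjusted p = 0.877 over the lists). For the other 6 lists the exact p was 0.2 or 0.3, with the same adjusted p.

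**Figure D4:**
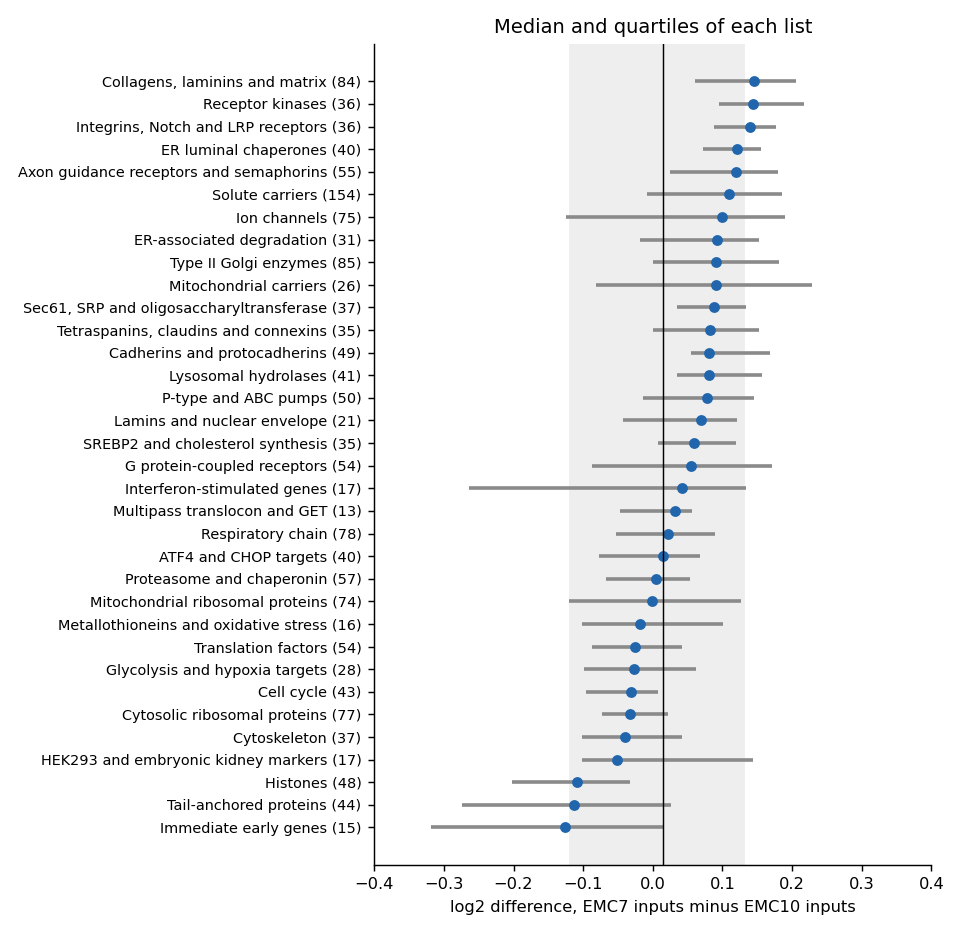
Median (point) and quartiles (bar) of the log2 difference of EMC7 minus EMC10 inputs for each list with at least 10 tested members, whose number stands in parentheses. The line and the grey band mark the median (0.01) and the quartiles (-0.12 and 0.13) of all 9456 genes. Most list medians, from -0.13 for immediate early genes to 0.15 for matrix proteins, lie inside the band, with those of secretory and membrane lists to the right and those of histones and tail-anchored proteins to the left.

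These lists were also joined, after their values were seen, into 15 secretory and membrane lists and 7 cytosolic and nuclear lists, without the tail-anchored, multi-pass translocon and EMC subunit lists and without the lamins and nuclear envelope. Of 862 secretory and membrane genes 672 were positive (78.0%, median 0.10), 0 passed the adjusted edgeR test, 10 were higher at an unadjusted p under 0.05 and 1 lower, beside 0.687% and 0.994% of all genes. With the tail-anchored, multi-pass translocon and EMC subunit lists added, 699 of 924 were positive (75.6%, median 0.10), 10 were higher and 3 lower at that p. Of 341 cytosolic and nuclear genes 122 were positive (35.8%, median -0.03), 1 was higher and 1 lower at that p. The share of counts on the secretory and membrane genes was 29.0% and 27.9% in EMC7 inputs, against 26.0%, 27.3% and 28.2% in EMC10 inputs. On the cytosolic and nuclear genes it was 11.0% and 11.6% against 12.8%, 11.7% and 11.5%. The lines overlapped on both, since EMC10 input 3 lay above EMC7 input 2 on the first and below it on the second, and the two-sided exact permutation p was 0.3 and 0.5.

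The ratio of these shares, a measure of how far a library leans to ER messages, did not order the libraries by line. It was 2.63 and 2.40 in EMC7 inputs, against 2.03, 2.33 and 2.44 in EMC10 inputs (exact permutation p = 0.4), and 0.980 and 1.61 in the EMC6 line inputs. EMC7 input 1 was the highest and EMC10 input 1 the lowest of the 5. Relative to all genes, the median of the secretory and membrane genes was 0.09, and it was 0.04 without EMC10 input 1 and 0.03 without EMC7 input 1. That of the cytosolic and nuclear genes was -0.05, and -0.02 and -0.01 without those libraries. A change of scaling shifts all genes nearly alike and so cannot test these relative medians. When counts were scaled on secreted and luminal lists, 38.5% of the secretory and membrane genes were positive, against 23.6% of all genes. The lists that set that scale are part of these joined lists.

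Genes at the edges of the distribution were named by a rule made after the first rule, which required a called gene, named none. Of the 159 genes with an unadjusted p under 0.05, 86 had at least 10 CPM in the higher line and no overlap, 40 of them higher and 46 lower in EMC7 inputs. On the higher side COL24A1, a fibrillar collagen, stood at 10.9 and 11.3 CPM against 5.33, 7.47 and 6.70 (0.76, interval 0.22 to 1.31), PROK2, a secreted prokineticin, at 12.1 and 9.01 against 4.64, 7.25 and 6.43 (0.80, interval 0.17 to 1.44) and TBL1XR1, a corepressor subunit, at 16.8 and 17.7 against 9.97, 9.23 and 13.7 (0.66, interval 0.20 to 1.11). On the lower side the Mediator subunit MED10 stood at 7.91 and 9.97 CPM against 14.8, 14.7 and 13.1 (-0.69, interval -1.21 to -0.17), and the procollagen enhancer PCOLCE at 9.77 and 8.04 against 17.6, 14.1 and 13.1 (-0.73, interval -1.30 to -0.16). MLST8, a subunit of the mTOR complexes, stood at 9.07 and 2.90 against 9.97, 13.2 and 10.7 CPM, 39 and 9 counts against 43, 60 and 40, with EMC7 input 2 far below the rest. All of these lay under 20 CPM, and adjusted p in edgeR's test was 1 for each. The immunoprecipitates, made from the same microsomes, differed in the same direction for 56.0% of the 159 genes and 53.9% of all genes.

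Of 13614 genes with a count in any of the 5 inputs, 12578 had counts in both lines. With 0 counts in both EMC7 inputs and at least 10 over the EMC10 inputs there were 6 genes (C19orf33, ESRRB, LRRC69, PTPN4, TNNI3 and ZSCAN23), none with over 8 counts in a library, and in the other direction there were 0. The EMC10 side sums 3 libraries and the EMC7 side 2, so the 2 directions are not on an equal footing. By chromosome the median log2 difference ran from -0.04 on chromosome 19 to 0.05 on chromosome 4. Over 193 bins of 10 Mb with at least 20 genes tested it ran from -0.14 to 0.14, and 0 bins had a median of over 0.2 in size.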

How the data were processed

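Values start from the authors' deposited tables, which hold raw counts, 1 whole number per gene symbol and library. Reads were handled with Cutadapt 4.1, Bowtie2 2.2.6 and TopHat2 2.1.0, with hg38 as the build, per the submitters' processing notes. Microsomes were treated with nuclease, pelleted and solubilized before RNase digestion, per the labels' protocols. Not given in the sources used here are the annotation, the strand setting and whether the primers' random bases served to remove duplicates, so duplicates may remain and overlapping or antisense genes cannot be told apart. Of 19440 symbols 19365 matched RefSeq's table of GRCh38, used for positions. The 5 entries that name no gene stayed out of library sizes and tests, and reads outside genes were 4.23% to 4.71% of counts in the 5 inputs.

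The fit used edgeR 4.0.16 on R 4.3.3 with limma 3.58.1. It held all 14 libraries so that groups share the estimate of the spread, and had a mean per line and fraction, TMM, filterByExpr and a robust quasi-likelihood test. DESeq2 1.42.0, other scalings, filters and sample sets, and fits without each input were alternatives. Shares of lists were tested by exact permutation over the 5 inputs. The steps were tested on simulated counts.

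The members, the lists and the rules were chosen with earlier results of these data known. The rule for named genes took up to 12 called genes a side with at least 10 CPM and no overlap, the 10 EMC subunits, up to 4 called members per list, the 20 messages with the largest mean share of counts and the 10 with the most counts per codon. Since no gene was called, the 6 genes a side with the largest difference among those with an unadjusted p under 0.05, at least 10 CPM and no overlap, and the 3 members of each list with the most footprints were added after the data were seen, and the text gives part of them. Some genes that the rules name are not reported here.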

Additional observations from a re-analysis of the deposited data

How the results depend on the processing

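Of the genes other than the baits, 0 were called in either direction under each of 19 alternatives, 18 of them planned. The count at an unadjusted p under 0.05, 159 as reported, was 252 with no filter on low counts, 17 in a test against a fold of 1.5, 411 with the 5 inputs alone, 47 with DESeq2 and 99 with DESeq2 on the 5 inputs, the last an alternative chosen after seeing the data. With the replicate number as a block in the fit of the 5 inputs it was 306, and the block changed no call. The labels give inputs of both lines the same numbers but do not say that these were made together, so the numbers were not taken as a pairing. Deviations of same-numbered inputs correlated at -0.31 for number 1 and -0.39 for number 2. The deviations of the EMC7 inputs from their mean mirror each other, so these correlations are not independent and cannot settle the pairing. Leaving out each input in turn gave 106 to 189, where a lone EMC7 input is assumed to vary like the other groups. EMC7 ranged from 3.91 to 4.19 and EMC10 from -3.28 to -2.97 on the log2 scale over 18 alternatives and both stayed called (adjusted p at most 0.00274 and 0.0419). The medians of 36 lists relative to all genes moved by less than the spread between libraries in 435 of 468 cases. Some scalings and tests that cannot move them were left out of these cases. Others that stayed in, such as DESeq2's test or taking out the bait rows, hardly can, and the spread comes from the same 5 libraries. The count of 435 is therefore no measure of stability. Each of the 36 medians moved by over 1.5 times without at least 1 input. The joined lists with 3 more lists and the tail-anchored list without TOMM20 and YKT6 were chosen after seeing the data. The mean shares of the leading 20 messages moved by less than 1 SD in all 120 cases. Leaving out 1 of 5 values cannot move their mean by 1 SD, and the bait rows hold few of the counts. These 120 cases could not have come out otherwise, so they do not test the shares. Scaling moved the median of all genes from 0.01 to -0.05 where library size alone was used, and to -0.13 where secreted and luminal lists set the scale. Not run were the ranking per codon and the comparison by predicted membrane segments or protein length, which need coding lengths or protein sequences not used here, and the comparison of immunoprecipitates for called genes, since no gene was called. Depth limits genes under 30 counts per input, and with 2 and 3 libraries no exact test can reach a p under 0.1.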
